A study of Mus musculus with 2 samples.

Results

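Ribbon synapse genes were followed across the cell types of the mature mouse retina, as a list of 10 genes given by symbol: Ctbp2, Bsn, Pclo, Rims2, Stx3, Cplx3, Cplx4, Unc13b, Slc17a7 and Syt1. All 10 were among the 25778 genes of the count table, and the rule that lists them uses no measured value. Single-cell RNA sequencing was used in the study to ask whether loss of Ptbp1, whose protein binds RNA and holds back neuron-type exons, alters the mature retina. The Ptbp1-Ctrl library came from a Chx10-Cre mouse with intact Ptbp1, and the Ptbp1-KO library from a Chx10-Cre;Ptbp1lox/lox mouse, both 30 days old (P30). Chx10-Cre, which both mice carried, expresses Cre in progenitors of the retina. There was 1 library per genotype, each from the retina of 1 mouse, so no difference between the libraries has a replicate check.

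Ribbon synapses are built by rods, cones and bipolar cells (BC), which release glutamate continuously and in proportion to graded voltage. A ribbon is an electron-dense plate that tethers many synaptic vesicles beside the active zone, and its core protein is RIBEYE, a product of the Ctbp2 gene. Amacrine cells (AC) signal through conventional synapses without ribbons, and Müller glia (MG) are not neurons and make no presynaptic terminals, so AC and MG served as the types for comparison. Several members are shared with conventional synapses, namely Bsn, Pclo, Rims2 and Syt1, and others stand in for a conventional counterpart at ribbons, namely Stx3 for Stx1a, and Cplx3 and Cplx4 for Cplx1 and Cplx2.

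The Ptbp1-Ctrl library held 16421 cells with 32758836 unique molecular identifiers (UMIs), and the Ptbp1-KO library 14522 cells with 35328593 UMIs. Rods numbered 10058 and 9301, cones 632 and 439, BC 3194 and 2549, AC 676 and 945, and MG 1720 and 1184, in Ptbp1-Ctrl and Ptbp1-KO. Levels are given as CPM, in which UMIs were summed over the cells of a type in a library and scaled to a total of 1000000, with exact 95% Poisson intervals in parentheses that cover counting error only. The smallest sum, cones of Ptbp1-KO, held 1425527 UMIs. Ptbp1 was at 13.8 to 49.8 CPM in the 5 types of Ptbp1-Ctrl and at most 1.18 CPM in those of Ptbp1-KO. All 7 rod, 6 cone, 6 BC and 6 MG markers were highest in the type they mark, as were 5 of 6 AC markers. The sixth, Tfap2b, was highest in horizontal cells. Cells named retinal ganglion cells carried the 7 rod markers at a summed 24177 and 29617 CPM, against 37220 and 33311 CPM in rods, and only 17 and 7 cells were named horizontal cells, so neither type was used. The methods describe 1 female mouse per genotype, but 4 Y-linked genes held 497 and 545 summed CPM and Xist 0.153 and 0.170 CPM. The libraries shared 63 cell barcode sequences.

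Of the 10 members, 5 stood at least 2-fold above both AC and MG in both libraries in rods (Rims2, Stx3, Cplx4, Unc13b and Slc17a7), where 7.00% of all genes with enough UMIs met the same rule. In cones 5 did (Ctbp2, Stx3, Cplx4, Unc13b and Slc17a7), against 6.05% of genes, and in BC 4 did (Ctbp2, Stx3, Unc13b and Slc17a7), against 4.11%. Stx3, Unc13b and Slc17a7 were in all 3 counts. Ctbp2 dropped out in cones (4 members left) and BC (3 left) with cells thinned to 1000 UMIs, and in cones with equal weight per cell. After subtraction of background RNA, with levels below it set to 3 UMIs, 6 members met the rule in each of the 3 types, Ctbp2, Rims2, Stx3, Cplx4, Unc13b and Slc17a7. Bsn, Pclo, Cplx3 and Syt1 were in none of them. The background was scaled lower in rods than in AC and MG. In MG the estimate exceeded the measured level for 8 of the 10 members. A gene had enough UMIs where it held at least 20 over the compared types. These counts describe 2 libraries, and the differences between cell types were not tested.

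Every member that missed the rule missed it against AC. Against MG alone, 8 members were at least 2-fold higher in rods (15.9% of genes), 10 in cones (12.9%) and 9 in BC (15.8%), both libraries counted. Against AC alone the counts were 5 in rods (10.1%), 5 in cones (9.33%) and 4 in BC (6.10%). AC thus held Bsn, Cplx3 and Syt1 above the level of all 3 ribbon types. Cplx3 in rods and both Bsn and Cplx3 in cones were at least 2-fold lower than in AC in both libraries.

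**Figure D1:**
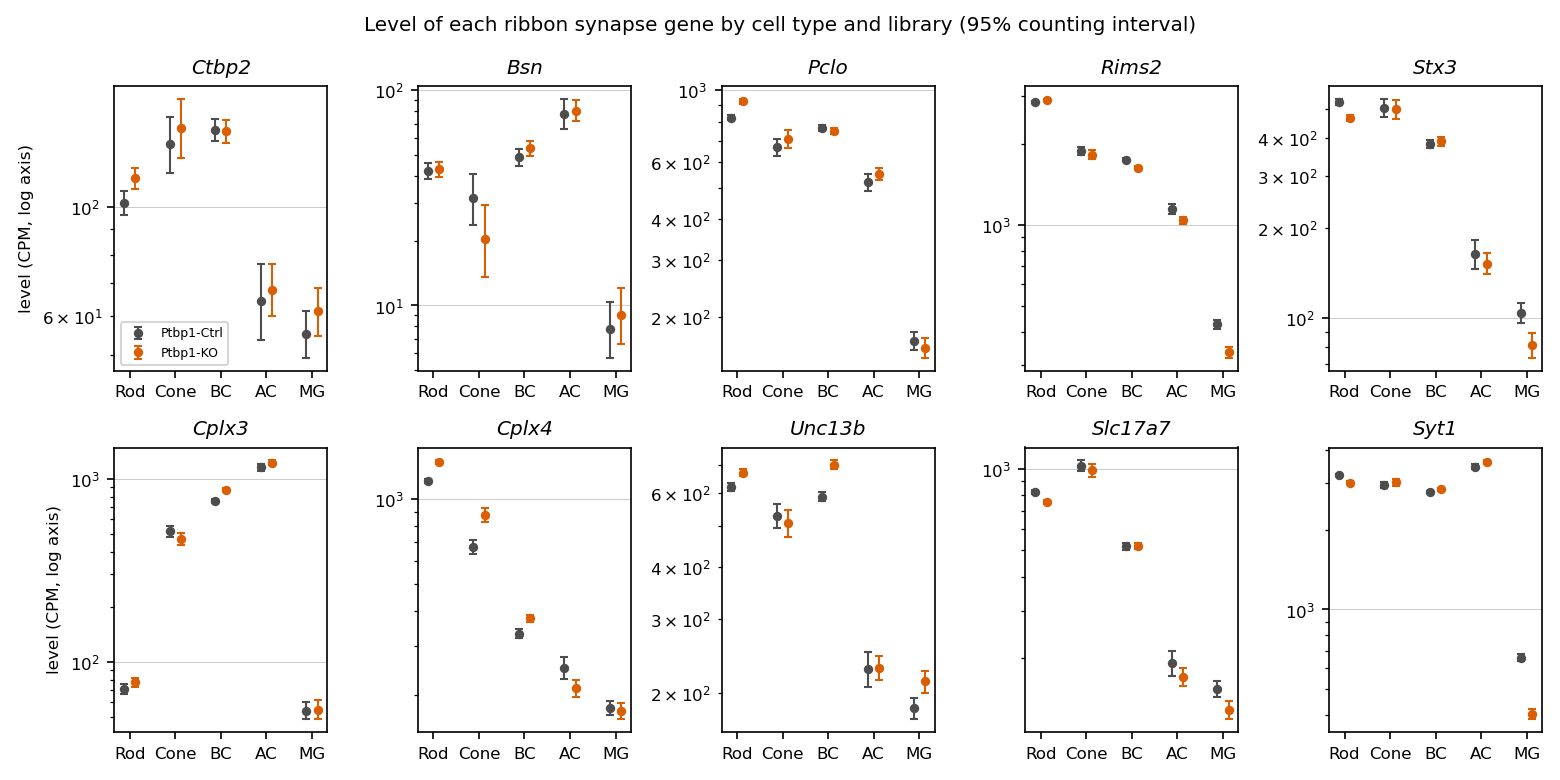
Level of each ribbon synapse gene in CPM (vertical axis, logarithmic, with its own range in each panel) in rods, cones, BC, AC and MG, with Ptbp1-Ctrl in grey and Ptbp1-KO in orange. Points are levels over all cells of a type in 1 library and bars are 95% counting intervals. Cplx4, Slc17a7, Stx3 and Unc13b were lowest in AC and MG, whereas Cplx3, Bsn and Syt1 were highest in AC.

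Ctbp2 encodes the transcriptional corepressor CtBP2 and, from an internal start site, RIBEYE, whose own first domain is joined to most of CtBP2. In Ptbp1-Ctrl its level was 102 CPM (96.4 to 107) in rods, 134 (117 to 152) in cones, 143 (136 to 151) in BC, 64.4 (53.7 to 76.7) in AC and 55.2 (49.4 to 61.5) in MG. In Ptbp1-KO the levels were 114, 145, 142, 67.9 and 61.3 CPM in the same order. BC and cones did not differ beyond their intervals and stood above rods, and rods stood above AC and MG, whose intervals overlapped. The ratio to AC was 2.22- and 2.10-fold in BC and 2.08- and 2.13-fold in cones, but 1.58- and 1.68-fold in rods.

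The counts cannot tell RIBEYE from CtBP2. Ctbp2 lies on chromosome 7 (GRCm38, 132987563 to 133124354, minus strand), and transcript Ctbp2-214 of the GENCODE annotation starts at 133015248 and encodes 988 codons, whereas Ctbp2-201 starts at 133123367 and encodes 445. Both end in the same last coding exon (132988174 to 132988351), the side from which a 3′ library reads. The annotated span of Fgfr2 on the same strand also runs over Ctbp2, and Fgfr2 held 25540 UMIs against 7310 of Ctbp2 over both libraries, so reads of the shared stretch are uncertain. The window around the start of the long transcript is shown because it holds the core motif of the photoreceptor and bipolar factors Crx and Otx2, TAATCC, read on the opposite strand and in capitals below, 121 bases before the start. It was picked after the levels of Ctbp2 were known. The sequence is from RefSeq (GRCm38.p6), chr7:133015198-133015497, minus strand.
Ctbp2: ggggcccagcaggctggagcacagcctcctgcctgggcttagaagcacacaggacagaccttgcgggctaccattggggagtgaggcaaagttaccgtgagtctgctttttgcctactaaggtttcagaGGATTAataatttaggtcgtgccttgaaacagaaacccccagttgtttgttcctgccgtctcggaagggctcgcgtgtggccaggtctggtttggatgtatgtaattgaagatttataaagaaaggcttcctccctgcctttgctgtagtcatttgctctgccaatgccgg

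TAATCC was searched on both strands of windows from 250 bases before to 50 bases after each RefSeq start. It occurred in 2320 of 32851 windows (7.06%), and in 2 of the 10 windows found for 8 members. The second was that of Stx3, shown because Stx3 was among the members at least 2-fold higher in rods, which Ctbp2 was not. Of the other members in that rod count, Unc13b and Slc17a7 had windows without the motif, and Rims2 and Cplx4 had no window. The motif of Stx3, in capitals, lies 30 bases after the start, and its window is chr19:11819354-11819653, minus strand (GRCm38.p6).
Stx3: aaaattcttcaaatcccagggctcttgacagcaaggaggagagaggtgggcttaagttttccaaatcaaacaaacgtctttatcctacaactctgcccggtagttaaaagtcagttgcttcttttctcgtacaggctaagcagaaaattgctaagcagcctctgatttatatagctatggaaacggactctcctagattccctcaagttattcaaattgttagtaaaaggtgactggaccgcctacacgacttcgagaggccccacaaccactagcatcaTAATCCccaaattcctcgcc
A match to these letters is a description of the sequence and not evidence of binding.

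Bsn (Bassoon) and Pclo (Piccolo) encode giant scaffold proteins of the active zone, and Bassoon anchors the ribbon in photoreceptors. Bsn was highest in AC, at 77.7 CPM (65.8 to 91.1) in Ptbp1-Ctrl and 80.4 (71.7 to 89.8) in Ptbp1-KO. BC followed at 48.8 (44.5 to 53.4) and 53.6 (49.2 to 58.3), and rods at 42.1 (38.7 to 45.8) and 42.9 (39.6 to 46.4). Cones were at 31.5 (23.7 to 41.0) and 20.3 (13.6 to 29.2), and MG at 7.79 and 9.04 CPM. Bsn was thus higher in neurons than in glia, with rods 5.41- and 4.74-fold above MG and cones by less. Rods, cones and BC all stood below AC. In cones of Ptbp1-KO, Bsn at 20.3 CPM lay below the estimated background of 22.7 CPM. The cone values rested on 55 and 29 UMIs.

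Pclo was at 825 CPM (809 to 840) and 925 (910 to 941) in rods, 765 and 751 in BC, 667 and 708 in cones, 521 and 552 in AC, and 169 and 160 in MG, in Ptbp1-Ctrl and Ptbp1-KO. All 3 ribbon types stood above AC, by 1.58- and 1.68-fold in rods, 1.47- and 1.36-fold in BC and 1.28-fold in cones of both libraries, each short of 2-fold. Ribbons are known to use a short form of Piccolo, and gene counts do not separate it from the full-length form. An antisense gene within Pclo, Gm26954, held 29042 UMIs against 46470 of Pclo, and strand was not stated to be used in counting.

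Rims2 encodes RIM2, an active zone protein that binds calcium channels and recruits priming factors, and Unc13b encodes Munc13-2, which primes vesicles for fusion. Rims2 showed 1 order of types in both libraries. It was at 2865 CPM (2836 to 2894) and 2907 (2880 to 2935) in rods, 1886 and 1818 in cones, 1746 and 1625 in BC, 1143 and 1036 in AC, and 426 and 335 in MG. No neighbours in that order had overlapping intervals. Rods stood 2.51- and 2.81-fold above AC, cones 1.65- and 1.75-fold, and BC 1.53- and 1.57-fold.

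Unc13b was at 620 CPM (606 to 633) and 670 (657 to 683) in rods, 587 (572 to 602) and 699 (683 to 716) in BC, and 529 (495 to 564) and 508 (472 to 546) in cones. AC held 228 (207 to 250) and 229 (215 to 245), and MG 184 (173 to 195) and 213 (201 to 226). Rods led in Ptbp1-Ctrl, whereas BC and rods had touching intervals in Ptbp1-KO. All 3 ribbon types were 2.21- to 3.05-fold above AC. AC and MG could not be separated in Ptbp1-KO.

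Stx3 encodes syntaxin 3, the plasma membrane fusion protein of ribbon synapses. It was at 529 CPM (516 to 541) and 468 (457 to 479) in rods, 505 (472 to 539) and 501 (465 to 539) in cones, 383 (371 to 396) and 390 (378 to 402) in BC, 164 (146 to 183) and 152 (140 to 165) in AC, and 104 (96.1 to 113) and 81.2 (73.6 to 89.4) in MG. Rods and cones did not differ beyond their intervals, and both stood above BC. The ratio to AC was 3.23- and 3.07-fold in rods, 3.09- and 3.29-fold in cones and 2.34- and 2.56-fold in BC. Syntaxin 3 is made as several splice forms, which were not resolved here.

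Complexins clamp and promote fusion by binding the assembled fusion complex, and the 2 ribbon complexins showed opposite patterns. Cplx4 was at 1159 CPM (1140 to 1178) and 1353 (1334 to 1372) in rods, 676 (638 to 715) and 878 (830 to 928) in cones, 331 (320 to 343) and 375 (364 to 387) in BC, 251 (229 to 274) and 212 (198 to 227) in AC, and 180 (169 to 191) and 175 (164 to 187) in MG. The order was the same in both libraries, with no overlap of neighbours, and rods stood 4.62- and 6.39-fold above AC. Cplx3 was at 71.2 CPM (66.7 to 75.9) and 77.1 (72.7 to 81.8) in rods, 517 (484 to 552) and 471 (436 to 508) in cones, 757 (740 to 775) and 874 (856 to 892) in BC, 1156 (1109 to 1205) and 1224 (1190 to 1260) in AC, and 54.2 (48.4 to 60.5) and 54.9 (48.6 to 61.7) in MG. Its order ran from AC through BC and cones to rods, again with no overlap. Rods therefore held the highest level of Cplx4 and, among neurons, the lowest of Cplx3, whose level in rods was 16.2 and 15.9 times lower than in AC and 1.31- and 1.41-fold above that in MG. In the main cluster of MG, Cplx3 was lower, at 22.7 and 24.2 CPM.

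Slc17a7 encodes VGLUT1, the transporter that loads glutamate into vesicles. It was highest in cones, at 1022 CPM (975 to 1071) and 983 (933 to 1036). Rods held 819 (804 to 835) and 754 (740 to 768), BC 516 (502 to 531) and 519 (506 to 534), AC 192 (173 to 212) and 171 (158 to 185), and MG 155 (145 to 165) and 129 (119 to 139). The order was the same in both libraries without overlap. Cones were 5.33- and 5.75-fold above AC, rods 4.27- and 4.41-fold, and BC 2.69- and 3.04-fold.

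Syt1 encodes synaptotagmin 1, the calcium sensor of fast release at most synapses. It was at 3456 CPM (3374 to 3539) and 3585 (3526 to 3645) in AC, the highest of the 5 types. Rods held 3220 and 3009, cones 2941 and 3014, BC 2773 and 2833, and MG 658 (637 to 679) and 402 (385 to 420). All 4 neuronal types lay within 1.27-fold of each other in each library, and Syt1 divided neurons from glia, as Bsn did.

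RNA of the rod markers was found in the other types, and its part in low values there was not tested. The 7 rod markers were at 14.4% to 18.0% of their rod level in MG of Ptbp1-Ctrl and 12.1% to 16.6% in MG of Ptbp1-KO, and at 16.2% to 21.0% and 13.7% to 20.9% in AC. None of the 7 was at 0 in any type. Cplx4 stood within or next to these ranges, with MG at 15.5% and 12.9% of the rod level and AC at 21.7% and 15.7%. Rims2 in MG was at 14.9% and 11.5% of rods, and Slc17a7 at 18.9% and 17.1%. These 3 genes were thus about as frequent in MG, relative to rods, as RNA of the rod markers was. Above that range stood Unc13b in MG (29.7% and 31.8%), Ctbp2 in MG (54.2% and 53.7%), and, in AC, Stx3 (30.9% and 32.5%), Unc13b (36.8% and 34.3%) and Rims2 (39.9% and 35.6%). A second estimate scaled the profile of the whole library to the rod markers in each type, and in rods to the MG markers. The scale was 0.037 and 0.038 in rods, against 0.27 to 0.51 in cones, BC, AC and MG. By it, 8 of the 10 members in MG lay below the estimate in both libraries, and Ctbp2 and Unc13b lay above it. Background cannot exceed a measured level, so the estimate was too high for those 8. For Cplx3 in MG it was 116 and 123 CPM, against measured levels of 54.2 and 54.9. In AC, Slc17a7 was below the estimate in both libraries and Cplx4 in Ptbp1-KO. In cones the rod markers were at 22.2% to 59.1% and 20.8% to 66.1% of their rod level. In BC they were at 14.0% to 23.1% and 12.4% to 22.8%. The estimate in cones of Ptbp1-Ctrl was 958 of 1886 CPM for Rims2, 324 of 676 for Cplx4 and 289 of 1022 for Slc17a7. Glial RNA was scarce in neurons, with the 6 MG markers in rods at 0.884% and 0.801% of their summed level in MG.

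**Figure D2:**
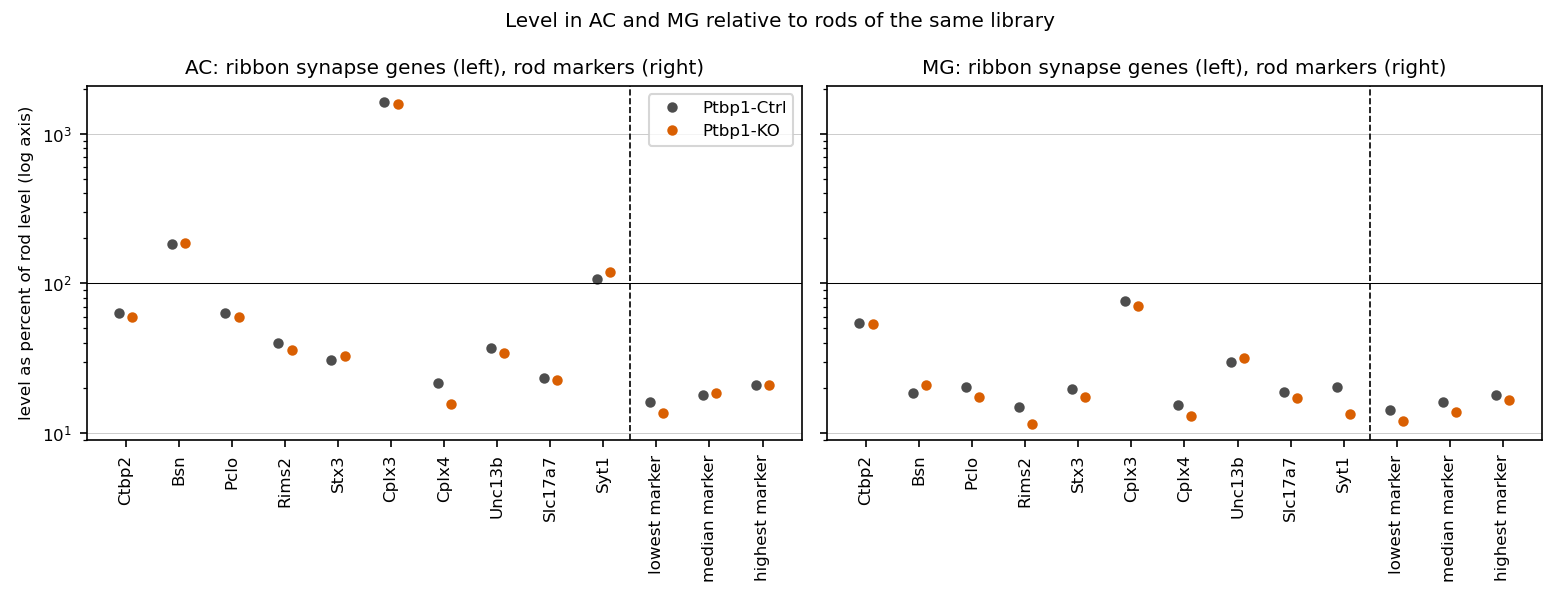
Level in AC (left panel) and MG (right panel) as percent of the level in rods of the same library (vertical axis, logarithmic), for the 10 ribbon synapse genes and, right of the dashed line, the lowest, median and highest of 7 rod markers. Grey points are Ptbp1-Ctrl and orange points Ptbp1-KO. In MG, Cplx4 and Rims2 lie at the rod markers (12.1% to 18.0%) or just below them, and Ctbp2 and Cplx3 lie above 50% of the rod level.

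Shares of cells with at least 1 UMI were compared at equal depth, each cell thinned to 1000 UMIs (values at own depth follow in parentheses). Cplx4 was found in 68.1% and 72.9% of rods (70.6% and 77.9%), 50.1% and 51.5% of cones (75.9% and 85.0%), and 15.1% and 12.9% of MG (34.7% and 37.2%). Cplx3 was found in 6.52% and 7.17% of rods (8.32% and 10.6%), 48.6% and 52.5% of BC (75.2% and 80.2%), 52.8% and 51.0% of AC (65.4% and 71.3%) and 3.67% and 3.67% of MG (11.3% and 12.5%). Slc17a7 reached 63.5% and 61.4% of cones (88.6% and 89.5%) and 12.4% and 9.12% of MG (30.4% and 29.6%). MG, which make no presynaptic terminals, serve as the comparison for background, at median depths of 3333 and 4178 UMIs, against 1088 and 1288 in rods, where thinning left out 4155 and 3126 cells. AC and BC had similar shares of cells with a Cplx3 UMI, although the level in CPM was higher in AC.

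Other presynaptic genes were set beside the members as 4 lists, and the same 2-fold rule and backgrounds apply. None of 9 further scaffold genes (Rims1, Rimbp2, Erc1, Erc2, Ppfia1, Ppfia2, Ppfia3, Ppfia4 and Ctbp1) and none of 10 conventional counterparts met it in any ribbon type. Rims1, the relative of Rims2, was at 5.22 and 6.35 CPM in rods, 245 and 236 CPM in AC and 274 and 251 CPM in MG. Of 5 genes of the ribbon calcium channel, 4 met it in rods (Cacna1f, Cacna2d4, Cacnb2 and Cabp4), 3 in cones and 2 in BC, with Cacna1f, the pore subunit, at 225 and 256 CPM in rods and 47.5 and 44.1 in AC. Of 10 vesicle and fusion genes common to both kinds of synapse, the vesicle protein gene Sv2b met it in rods and cones, and Nsf and Syt2 in BC. Both conventional complexin genes were higher in AC than in the ribbon types. Cplx2 was at 151 and 221 CPM in AC and 2.76 and 4.55 in rods, and Cplx1 at 18.9 and 27.7 in AC and at most 7.23 in the ribbon types.

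Rods fell into 4 clusters deposited by the authors, and the members divided between them. Those clusters were built from the same cells, so their differences are a description. From cluster 0 to cluster 3, Rims2 went from 3979 and 3769 CPM to 1046 and 943, Syt1 from 4295 and 3706 to 1388 and 1274, and Pclo from 1127 and 1194 to 345 and 333. Unc13b went from 819 and 841 CPM to 311 and 274, and Bsn from 54.8 and 49.4 to 21.5 and 19.8. Slc17a7 went the other way, from 447 and 427 CPM to 1530 and 1682, as did Stx3, from 445 and 399 to 681 and 656. Cplx4 was 0.17 and 0.23 higher in cluster 3 on the log2 scale, and Ctbp2 0.03 higher and 0.35 lower (−0.35). Clusters 1 and 2 lay between these ends for Rims2, Syt1, Pclo and Slc17a7.

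Rims2 in cluster 3, at 1046 and 943 CPM, lay below the 1143 and 1036 CPM of AC. The 2-fold lead of rods in Rims2 thus belonged to clusters 0, 1 and 2, which held 2421 CPM or more. The lead of Slc17a7 held in all 4 rod clusters, where its lowest level was 427 CPM against 171 in AC of that library. With each cluster given equal weight, a setting added after the data were seen, 4 members met the 2-fold rule in rods, without Unc13b, 3 in cones (Stx3, Cplx4 and Slc17a7) and 2 in BC (Stx3 and Slc17a7). In that setting Cplx3 in rods lay below MG, with a log2 ratio of −1.02 and −1.06, because MG cluster 22 counted as much as the main MG cluster.

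Other measures moved with these rod clusters. The nuclear RNA Malat1 was at 35006 and 41006 CPM in cluster 0 and 7300 and 6883 in cluster 3. Mitochondrial genes held 0.879% and 1.01% of UMIs in cluster 0 and 5.39% and 4.50% in cluster 3, and the 7 rod markers a summed 18171 and 16892 CPM against 72360 and 76845. The 5 members lower in cluster 3 in both libraries span 94.4 kb (Bsn), 206 kb (Unc13b), 349 kb (Pclo), 486 kb (Rims2) and 513 kb (Syt1) of the genome, and the 3 members higher there in both span 12.2 kb (Slc17a7), 14.5 kb (Cplx4) and 44.3 kb (Stx3). Ctbp2 spans 137 kb. Cplx3, the shortest at 6.29 kb, had log2 ratios of cluster 3 over cluster 0 of 0.20 (−0.05 to 0.45) and −0.17 (−0.42 to 0.08). The part of nuclear RNA and of gene length in these differences was not tested, and it was not stated whether intronic reads were counted. Cluster 3 held 18.2% of Ptbp1-Ctrl rods and 10.5% of Ptbp1-KO rods.

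**Figure D3:**
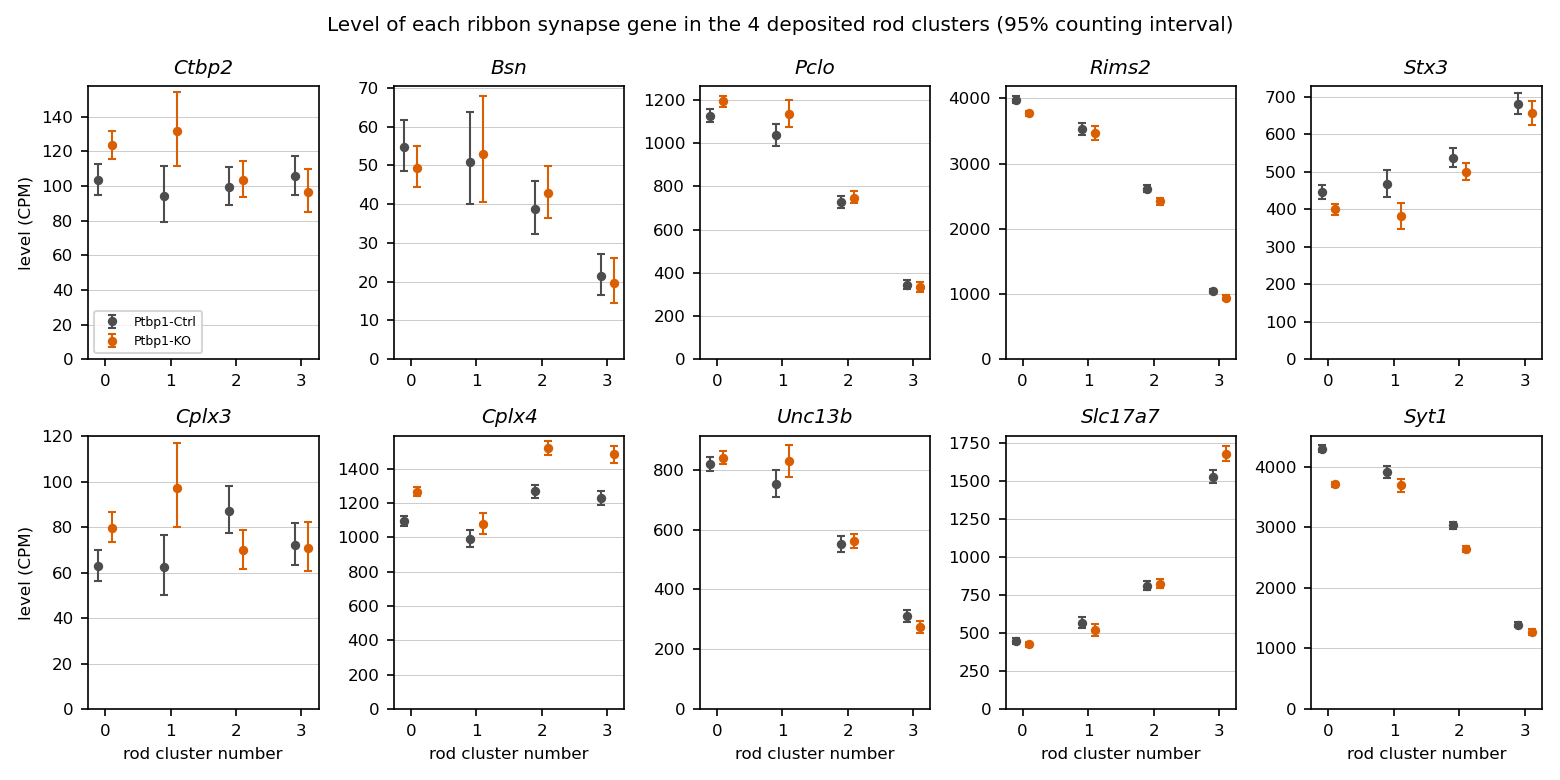
Level of each ribbon synapse gene in CPM (vertical axis, from 0) in the 4 deposited rod clusters (horizontal axis, cluster number), with Ptbp1-Ctrl in grey, Ptbp1-KO in orange and 95% counting intervals as bars. Rims2, Syt1, Pclo, Unc13b and Bsn are lowest in cluster 3, where Slc17a7 and Stx3 are highest.

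BC varied most in the complexins. Over 10 BC clusters Cplx3 ranged from 122 CPM (84.1 to 172) and 160 (119 to 210) in cluster 20 to 1049 (1009 to 1090) and 1181 (1142 to 1221) in cluster 5, a ratio of 8.58- and 7.39-fold. Cplx4 was lowest in that same cluster 5, at 169 and 146 CPM, and highest in cluster 13, at 651 and 745. Unc13b was highest in clusters 10 (995 and 1189 CPM) and 5 (880 and 1019), and at most 626 and 676 CPM in the other 8. Clusters 5 and 10 were those high in Prkca, the protein kinase C gene known from rod bipolar cells, at 7011 and 6644 CPM in cluster 5 and 8030 and 8053 in cluster 10, against at most 535 and 468 elsewhere. Cluster 10 nevertheless held only 332 and 270 CPM of Cplx3, so the Prkca-high clusters differed between themselves in this gene. Median depth was 1529 and 1858 UMIs per cell in cluster 10 and 2987 and 4156 in cluster 5, and rod markers were at 11985 and 9694 CPM against 5623 and 4346. Pclo, by comparison, varied by 1.44- and 1.48-fold over the 10 clusters.

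AC differed in Cplx3 as well. Cluster 14 held 1979 CPM (1874 to 2088) and 2434 (2337 to 2535), cluster 15 held 1234 and 1285, and cluster 6 held 469 (425 to 518) and 585 (552 to 620). The glycine transporter gene Slc6a9 followed the same division, at 1028 and 1289 CPM in cluster 14, 864 and 918 in cluster 15 and 151 and 200 in cluster 6. Gad1, which makes GABA, was at 479 and 536 CPM in cluster 6 and had 0 UMIs in cluster 14, where 3 UMIs would be 4.48 and 3.10 CPM. Cplx3 was thus highest in the AC cluster with Slc6a9 and no detected Gad1. Syt1 was also highest in cluster 14, at 3821 and 4149 CPM. The other 8 members were lower in cluster 14 than in cluster 6 in both libraries, with Unc13b at 371 and 320 CPM in cluster 6 and 107 and 130 in cluster 14. Rod markers were at 8865 and 7161 CPM in cluster 6 and 4639 and 4273 in cluster 14, and their part in the values of those 8 members was not tested. Cluster 14 held 33.0% of AC in Ptbp1-Ctrl and 22.6% in Ptbp1-KO.

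**Figure D4:**
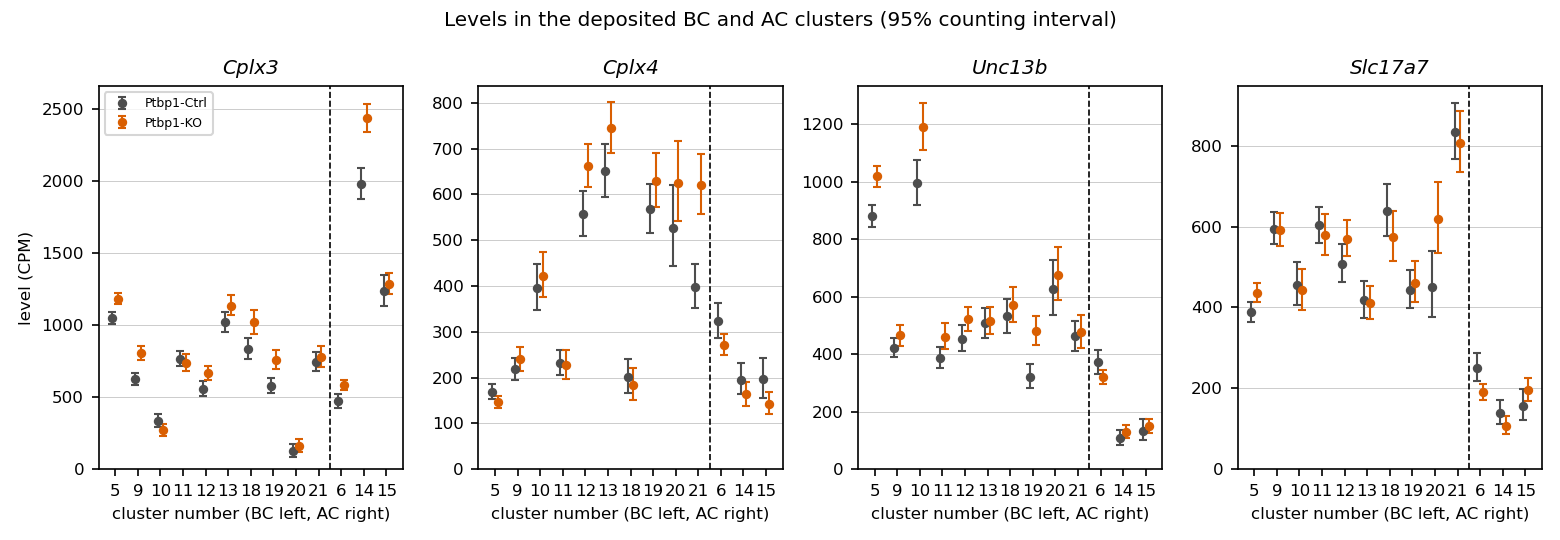
Level in CPM (vertical axis, from 0) of Cplx3, Cplx4, Unc13b and Slc17a7 in the 10 BC clusters (left of the dashed line) and 3 AC clusters (right), by deposited cluster number, with Ptbp1-Ctrl in grey, Ptbp1-KO in orange and 95% counting intervals as bars. Cplx3 is lowest in BC cluster 20 and highest in AC cluster 14, and Unc13b is highest in BC clusters 5 and 10.

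Within MG all 10 members were at a lower level in the main cluster than in the small cluster 22, in both libraries. The main cluster 4 held 80.6% and 84.0% of MG, and there Cplx3 was at 22.7 and 24.2 CPM, Stx3 at 84.6 and 68.4, and Syt1 at 546 and 296. Cluster 22, with 89 and 54 cells and the highest median depth among MG (6076 and 7127 UMIs per cell), held 353 and 426 CPM of Cplx3 and 1517 and 1499 of Syt1. Cluster 16, with 245 and 136 cells, held 402 and 361 CPM of Cplx4 and rod markers at 12908 and 8154 CPM, against 5779 and 4773 in cluster 4. Whether neurons are mixed into these clusters was not tested. With MG cluster 4 as the only glia, the counts of members at least 2-fold above AC and MG were again 5, 5 and 4.

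Across all 21 clusters, Stx3 and Slc17a7 had the most similar patterns among the members (Pearson r = 0.93 of log2(CPM + 1), averaged over the libraries), followed by Pclo and Rims2 (0.92). Cplx3 and Cplx4 were the least alike (r = −0.45). Among 7559 other genes the one most like Stx3 and also most like Slc17a7 was Rd3, a photoreceptor gene (0.95 and 0.96). Cplx4 was most like Gucy2e (0.89), a guanylate cyclase of photoreceptors, Syt1 most like Snap91 (0.94) and Bsn most like Dnm1 (0.89), the gene of dynamin 1. Pclo was most like 2210408I21Rik (0.93), Rims2 like Gtf2ird1 (0.93), Cplx3 like Fbll1 (0.94), Unc13b like Zranb1 (0.87) and Ctbp2 like Plk5 (0.92). Clusters of 1 library share its depth and free RNA, so these values are descriptions.

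Between the genotypes few members differed by a large ratio. Of 50 pairs of member and cell type, 2 reached a log2 ratio (Ptbp1-KO over Ptbp1-Ctrl) of 0.5 in size and none reached 1. In rods none of the 10 members was past 0.5 up (2.39% of genes were) or down (0.635%), and in BC none was either (1.04% up, 0.785% down), nor in AC (2.62% up, 2.24% down). In cones none was up (5.56%) and Bsn was down (4.45%). In MG none was up (3.11%) and Syt1 was down (2.45%), with 9 members measured well enough there. The shares in parentheses are of genes with a mean of at least 20 CPM and with at least 20 UMIs in the type. Median ratios of the members were 0.07 in rods, −0.03 in cones, 0.03 in BC, 0.03 in AC and −0.06 in MG, beside 0.09, 0.00, 0.02, 0.00 and 0.00 over all genes.

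Syt1 in MG showed the largest ratio, at 658 CPM (637 to 679) in Ptbp1-Ctrl against 402 CPM (385 to 420), which is −0.71 on the log2 scale with an exact interval of −0.79 to −0.63. Its share of MG at equal depth was 35.8% and 22.9%. The ratio was −0.88 (−0.98 to −0.79) in the main cluster 4, −0.53 (−0.81 to −0.26) in cluster 16 and −0.02 (−0.18 to 0.14) in cluster 22, and −0.30 with the 3 clusters weighted equally. Other members in MG had ratios of −0.36 (−0.54 to −0.18) for Stx3, −0.35 (−0.44 to −0.26) for Rims2, −0.26 (−0.41 to −0.12) for Slc17a7 and 0.21 (0.09 to 0.34) for Unc13b. Rod markers in MG were at a summed 6103 CPM in Ptbp1-Ctrl and 4818 in Ptbp1-KO, and their part in these ratios was not tested. In MG low in rod markers the ratio of Syt1 was −0.84. The background estimate for Syt1 in MG, 838 and 727 CPM, exceeded both measured levels, so it was too high there and its subtraction left no ratio. In Ptbp1-KO, Syt1 in MG was at 13.4% of the rod level, within the range of the rod markers.

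Bsn in cones, the other pair past 0.5, had 55 and 29 UMIs and a log2 ratio of −0.63, whose interval (−1.33 to 0.04) held 0. Smaller ratios stood out from counting error in photoreceptors and BC. Cplx4 was higher in Ptbp1-KO by 0.22 (0.19 to 0.25) in rods, 0.38 (0.26 to 0.49) in cones and 0.18 (0.11 to 0.25) in BC, and in each of the 4 rod clusters, by 0.12 to 0.27. Over the BC clusters its ratio ran from −0.21 (cluster 5) to 0.64 (cluster 21), and in BC low in rod markers it was −0.07. Unc13b was higher by 0.25 (0.20 to 0.30) in BC, where all 10 clusters had ratios above 0, from 0.02 to 0.58. Cplx3 was higher by 0.21 (0.16 to 0.25) in BC, with clusters from −0.30 (−0.59 to −0.01, cluster 10) to 0.39 (0.21 to 0.58, cluster 19). Stx3 in rods was lower, at −0.18 (−0.22 to −0.13), and Slc17a7 in rods at −0.12 (−0.16 to −0.08), but Slc17a7 turned to 0.04 with the 4 rod clusters weighted equally. Syt1 in rods was lower too, at −0.10 (−0.12 to −0.08), and in each rod cluster, from −0.21 to −0.08. Pclo and Ctbp2 in rods were both higher by 0.17, though not in cluster 3. Rims2 was at 0.02 over all rods, yet below 0 in each rod cluster, from −0.15 to −0.03. Scaling by the median of ratios shifts all rod ratios by −0.11, which leaves Cplx4 and Stx3 on their sides of 0 but takes Rims2 from 0.02 to −0.09. With 1 mouse per genotype, none of these can be told apart from differences between animals or libraries.

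**Figure D5:**
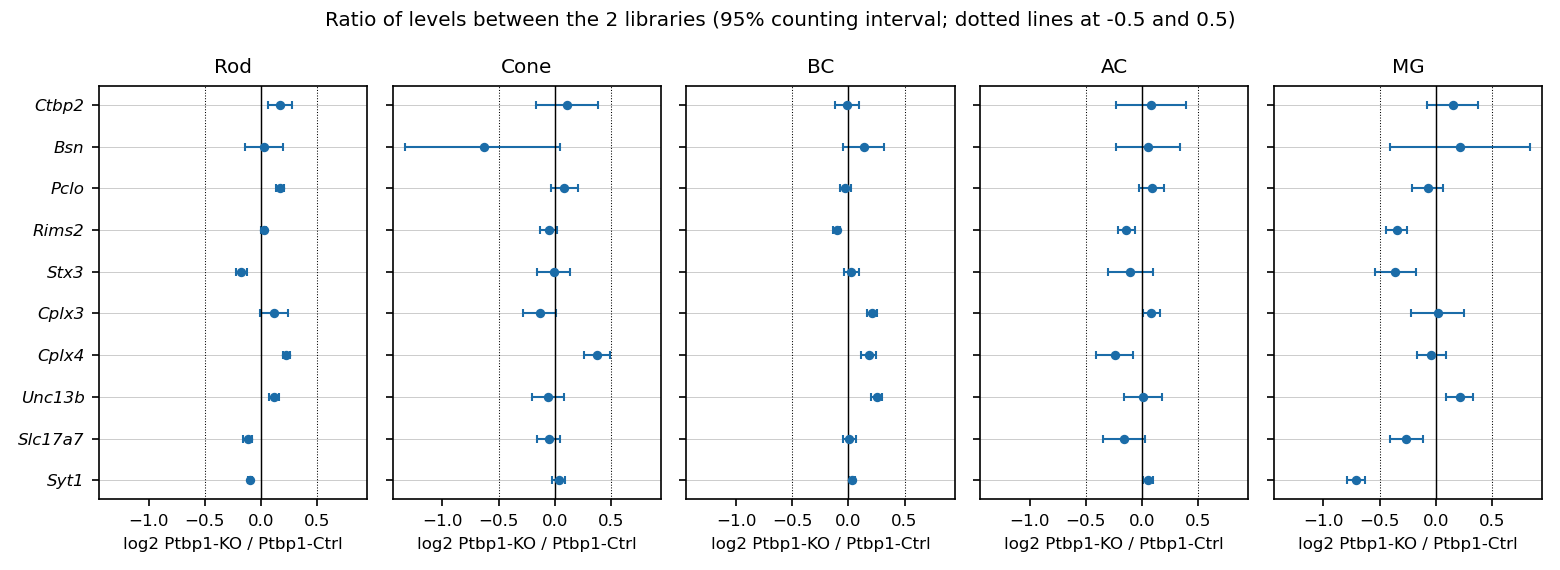
Log2 ratio of the level in Ptbp1-KO over Ptbp1-Ctrl (horizontal axis) for each ribbon synapse gene (rows) in rods, cones, BC, AC and MG, with 95% counting intervals as bars and dotted lines at −0.5 and 0.5. Syt1 in MG (−0.71) and Bsn in cones (−0.63) lie past the dotted lines, and the bar of Bsn crosses 0.

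Among the other scaffold genes with a mean of at least 20 CPM in a type none was past 0.5 in any type, with extremes of 0.23 (Ppfia2 in MG) and −0.22 (Ppfia1 in cones), and among the vesicle and fusion genes above the same level none was either, with extremes of 0.50 (Sv2a in cones) and −0.30 (Sv2b in MG). Cabp4, a calcium-binding regulator of the channel, had ratios below 0 in all 5 types, at 294 and 237 CPM in rods (−0.31), 62.8 and 39.7 in BC (−0.66) and 51.6 and 35.2 in MG (−0.55), with an interval that held 0 in AC. The channel subunit gene Cacnb2 was at 304 and 208 CPM in MG (−0.55). Cacna1f went the other way in rods, at 0.19 (0.12 to 0.26), and in cones, at 0.28 (0.05 to 0.51). In BC, AC and MG the interval of Cacna1f held 0. Of the conventional counterparts, Cplx1 was at 0.55 in AC, Cplx2 at 151 and 221 CPM in AC (0.55) and 27.5 and 48.4 CPM in cones (0.82), and Unc13a at 67.0 and 46.9 CPM in AC (−0.51).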

How the data were processed

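Single-cell RNA sequencing libraries of the retina were analysed, 1 for Ptbp1-Ctrl and 1 for Ptbp1-KO. The authors aligned reads to mm10 with Cell Ranger 7.0.1, filtered and clustered cells with Seurat 4, and deposited raw UMI counts per gene and cell with their cluster and cell type names, which were used as given (4 other columns of the cell table were not used). The gene annotation, counting of introns and use of strand were not given in the sources used here.

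Counts were summed per library and cell type with Python 3.11.15 (numpy 2.4.6, scipy 1.17.1, pandas 2.3.3) and divided by the type's total. Levels have exact Poisson intervals, ratios exact conditional binomial intervals and shares of cells Clopper-Pearson intervals, all at 95% and for counting error only. With 1 library per genotype no count model was fitted, and edgeR 4.0.16 (R 4.3.3) gave TMM factors only. Doublets were not called. As stand-ins, the 5% of cells with most UMIs, or cells high in rod markers, were left out. Background was estimated as the library profile scaled to the rod markers of a type, or to the MG markers in rods. The script was tested on simulated data.

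The members, gene lists and markers were chosen with earlier results of these data known. Named were all members, the extremes of each list, the cluster with the lowest and highest level, and the gene most like each member. Genes described beside them (Cabp4, Cacnb2, Cplx1, Cplx2, Rims1, Prkca, Slc6a9, Gad1, Malat1) were in part chosen after their values were seen. The values of 1 gene of the lists are not reported here.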

Additional observations from a re-analysis of the deposited data

Results flagged for a closer look

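For 2 genes the ratios between the libraries in a pair of cell types had intervals on opposite sides of 0 and lay at least 0.5 apart on the log2 scale. The difference between the types was not tested. Cplx4 had a log2 ratio (Ptbp1-KO over Ptbp1-Ctrl) of 0.38 in cones and −0.24 in AC. The AC value was −0.04 with equal weight per cell and −1.05 in cells low in rod markers. In AC of Ptbp1-KO, Cplx4 was at 212 CPM against an estimated background of 275, so after subtraction its AC ratio is set by the floor of 3 UMIs. Syt1 had a ratio of 0.053 in AC and −0.71 in MG. Each type has 1 library per genotype, so each ratio is a single comparison.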

How the results depend on the processing

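Of 401 genotype ratios of the members under alternatives, 322 stayed within their counting interval, 71 moved further and 8 changed sign. Subtraction of background gave 41 of 50 ratios, and 9 (8 in MG, 1 in AC) had no level above it in either library. For Bsn in cones and Cplx4 in AC 1 library had none, so their ratios are set by the floor of 3 UMIs. At a 4-fold rule, 2 members stood above AC and MG in rods, 1 in cones and 0 in BC, and with clusters weighted equally 3 did in cones and 2 in BC. The 2-fold counts were 6 in each type after background subtraction, 4 in cones and 3 in BC after thinning, 4 in cones with equal weight per cell and 6 in cones low in rod markers. The equal weighting of clusters, and the use of the main MG cluster, were chosen after seeing the data. The median rod ratio was 0.14 after thinning, −0.024 with TMM and −0.043 with median-of-ratios scaling, and the median MG ratio 0.83 after background subtraction, over the 2 members left. Members past 0.5 numbered 0 in cones under equal weight per cell, cells low in rod markers or a log2 ratio of at least 1. In AC there were 1 after thinning, 2 in cells low in rod markers and 1 after background subtraction. In MG there were 0 with clusters weighted equally or at a ratio of 1. In rods Rims2 turned to −0.073 (TMM), −0.091 (median of ratios) and −0.076 (clusters weighted equally), Unc13b to −9.3e-05 (median of ratios) and Slc17a7 to 0.040 (clusters weighted equally). In BC Cplx4 turned to −0.068 in cells low in rod markers and Syt1 to −0.0040 with TMM. In AC Cplx3 turned to −0.064 after thinning. Cplx3 in rods over MG turned to −1.02 in Ptbp1-Ctrl and −1.06 in Ptbp1-KO with clusters weighted equally. The last is set by the weight of MG cluster 22, and the TMM and median-of-ratios values in rods by a shift of all rod genes (−0.094 and −0.11). The cause of the others was not tested. For the genotype ratios neither leaving out a replicate nor a paired fit could be done, because each genotype had 1 library. Cell types were compared by ratios within each library, without a paired test. Depth limits Bsn most, with 55 and 29 UMIs in cones and 46 and 46 in MG.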
